A study of Mus musculus with 6 samples.

Results

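The genes described here hold endothelial cells together or guide leukocytes across them. They are Jam2, F11r and Jam3 (the junctional adhesion molecules JAM-B, JAM-A and JAM-C), their relative Esam, the claudin Cldn5, the cadherin Cdh5 (VE-cadherin), the contact protein Pecam1, the scaffold Tjp1 (ZO-1) and Ocln (occludin). Each of the 9 symbols was matched to a single row among 34099 genes in the deposited matrices, and its unique molecular identifiers (UMIs, tags that count each captured RNA molecule once) were summed over the cells of each annotated cell type and cluster of each mouse. Levels below are CPM (a gene's share of all UMIs in that sum, scaled by 1000000), 1 value per mouse, so n counts mice.

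Tumor tissue came from 3 control mice and 3 stressed mice, with 1 droplet single-cell library per mouse. All were wild type by their labels, and the study's methods describe male C57BL/6J mice obtained at 8 weeks of age. H22 cells, a murine HCC line, were placed in the liver after the stress protocol, when the mice were older. The stressed mice had gone through chronic unpredictable mild stress, a series of changing daily stressors, and the controls received the same tumor cells without stressors. The tumors all came from 1 transplanted line, which limits them as a model of HCC that arises in the liver itself.

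Endothelial cells (ECs) line vessels and close the gaps between themselves with adherens junctions, built on Cdh5, and tight junctions, built on claudins, occludin and the JAMs with Tjp1 beneath the membrane. JAM-B binds JAM-C and also JAM-A, and JAMs bind leukocyte integrins, which is how these proteins take part in the passage of leukocytes through vessel walls. F11r, Tjp1 and Ocln are also general epithelial genes, whereas Cldn5, Cdh5 and Esam are known as endothelial ones.

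The genes lie on 7 chromosomes of the mouse build GRCm38, and each position spans the whole gene with its exons and introns. Jam2 (chr16:84774123-84825928) and Cldn5 (chr16:18776847-18778262) are both on chromosome 16, and Jam3 (chr9:27097384-27155421) and Esam (chr9:37528078-37538319) are both on chromosome 9. F11r lies at chr1:171437535-171464603, Cdh5 at chr8:104101625-104144511, Pecam1 at chr11:106654217-106750628, Tjp1 at chr7:65296165-65527781 and Ocln at chr13:100496507-100552718. Cdh5 and Jam3 each overlap an antisense gene that was also counted, Gm29682 and Gm48796, and whether counting used strand is not given in the sources used here.

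The promoters of 3 genes are shown because their levels below differ in kind: Cldn5 UMIs were nearly all in ECs, whereas most F11r and Tjp1 UMIs were in tumor cells. The RefSeq table (GRCm38.p6) held a promoter for 4 of the 9 genes, the fourth being Ocln. Each window has 300 bases, most of them before the RefSeq start used, and for Tjp1 that start lies inside the gene's GENCODE span, not at its outer end. Capitals mark matches, on either strand, to GGGCGG (a GC box, read as CCGCCC on the other strand), CGGAAG (an ETS-type motif, read as CTTCCG) and TGANTCA (an AP-1-type motif). The windows are chr16:18776597-18776896 on the plus strand for Cldn5, chr1:171437311-171437610 on the plus strand for F11r and chr7:65371195-65371494 on the minus strand for Tjp1.
Cldn5: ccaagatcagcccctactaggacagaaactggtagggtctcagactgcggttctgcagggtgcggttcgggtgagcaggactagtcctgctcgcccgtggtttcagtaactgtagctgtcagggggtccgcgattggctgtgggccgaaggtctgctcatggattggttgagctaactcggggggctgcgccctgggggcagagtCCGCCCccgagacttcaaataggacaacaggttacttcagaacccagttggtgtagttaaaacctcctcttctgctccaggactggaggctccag
F11r: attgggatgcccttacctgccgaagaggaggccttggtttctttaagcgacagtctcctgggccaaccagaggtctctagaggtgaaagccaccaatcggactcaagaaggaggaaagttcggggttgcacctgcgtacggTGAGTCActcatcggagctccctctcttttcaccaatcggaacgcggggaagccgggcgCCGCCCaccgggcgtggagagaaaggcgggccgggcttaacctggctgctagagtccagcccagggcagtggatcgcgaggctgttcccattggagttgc
Tjp1: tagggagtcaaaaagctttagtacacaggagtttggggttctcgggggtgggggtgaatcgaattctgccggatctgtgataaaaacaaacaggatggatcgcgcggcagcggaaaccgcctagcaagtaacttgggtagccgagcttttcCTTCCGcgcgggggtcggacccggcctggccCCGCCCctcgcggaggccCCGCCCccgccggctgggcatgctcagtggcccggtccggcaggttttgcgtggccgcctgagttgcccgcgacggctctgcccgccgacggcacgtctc
The Cldn5 window held 12 CpG dinucleotides at 58.3% G and C, with 1 GC box. The F11r window held 19 CpG at 60.3%, with 1 GC box and 1 AP-1-type match, and the Tjp1 window held 31 CpG at 65.3%, with 2 GC boxes and 1 ETS-type match. Across 32851 promoters of the same length, the median was 7 CpG and 52.7% G and C, and 35.7% held the GC box, 16.9% the ETS-type motif and 7.81% the AP-1-type motif. TATAAA, present in 13.6% of all promoters, was in none of these windows. The motifs do not overlap one another in these windows, and a match describes letters only.

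The annotation kept 58794 of 61374 barcodes, between 7239 and 11752 cells per mouse, with 149558935 to 187728350 UMIs per mouse and a median of 7166 to 20478 UMIs per cell. Any 2 libraries shared 13 to 40 cell barcodes, at most 0.424% of the smaller library. Control matrices named Cell Ranger 9.0.0 and stress matrices 7.1.0 in their headers, so the effect of the software version and that of stress cannot be told apart here. The labels of ECs (11433 cells) and monocytes (6260 cells) were checked with markers that are not among the 9 genes. The 10 endothelial identity markers summed to 5681 to 8694 CPM in ECs against 160 to 235 in monocytes, and the 7 monocyte and macrophage markers to 4183 to 6922 CPM in monocytes against 182 to 348 in ECs.

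Jam2 was an EC gene in these tumors. It averaged 643 CPM ± 203 (SD, n = 6) in ECs, 79.2 times the next cell type, hepatic stellate cells (HSCs) at 8.12 CPM. ECs held 95.4% of all Jam2 UMIs while holding 7.09% of all UMIs. Also highest in ECs were Cldn5 (119 CPM ± 26.3, 51.1 times the next type), Cdh5 (717 ± 104, 28.4 times) and Esam (727 ± 150, 16.3 times). ECs held 95.0%, 94.3% and 93.1% of their UMIs. The next type was inflammatory myeloid cells for Cldn5 (2.34 CPM), B cells for Cdh5 (25.2) and HSCs for Esam (44.5). For each of these 4 genes the lowest EC mouse lay above the highest mouse of the next type. Pecam1, which is also made by platelets and many leukocytes, stood at 588 CPM ± 72.1 in ECs and 61.6 ± 12.5 in B cells, a 9.55-fold difference, with monocytes at 44.5.

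F11r and Tjp1 were spread over many cell types. F11r, which the study examined as the macrophage partner of endothelial JAM2, was itself highest in ECs at 169 CPM ± 23.4 (n = 6), 2.43 times HSCs at 69.6. Below ECs, HSCs, tumor cells (65.6), monocytic myeloid-derived suppressor cells (M-MDSCs, 62.3), monocytes (60.3) and dendritic cells (DCs, 59.9) overlapped mouse by mouse, so their order is not resolved. Tjp1 stood at 313 CPM ± 52.2 in ECs and 86.5 ± 7.5 in tumor cells, 3.61 times lower, and tumor cells did not separate from M-MDSCs at 84.1. Because tumor cells carried 82.7% of all UMIs, they held 75.8% of the F11r UMIs and 73.5% of the Tjp1 UMIs.

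Jam3 and Ocln were rare. Jam3, the main JAM-B partner, averaged 12.8 CPM ± 7.01 in HSCs (n = 4 mice with at least 10 such cells) and 7.79 ± 2.27 in ECs (n = 6), and the ranges overlapped. ECs exceeded the type after them, M-MDSCs, 6.40-fold for Jam3. Ocln had 371 UMIs in all annotated cells, of which 12 were in ECs, and 78.4% were in tumor cells. Its mean was highest in natural killer and T cells (NK/T cells) at 1.04 CPM ± 1.33, a spread larger than the mean, so no order of cell types can be given for occludin.

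**Figure D1:**
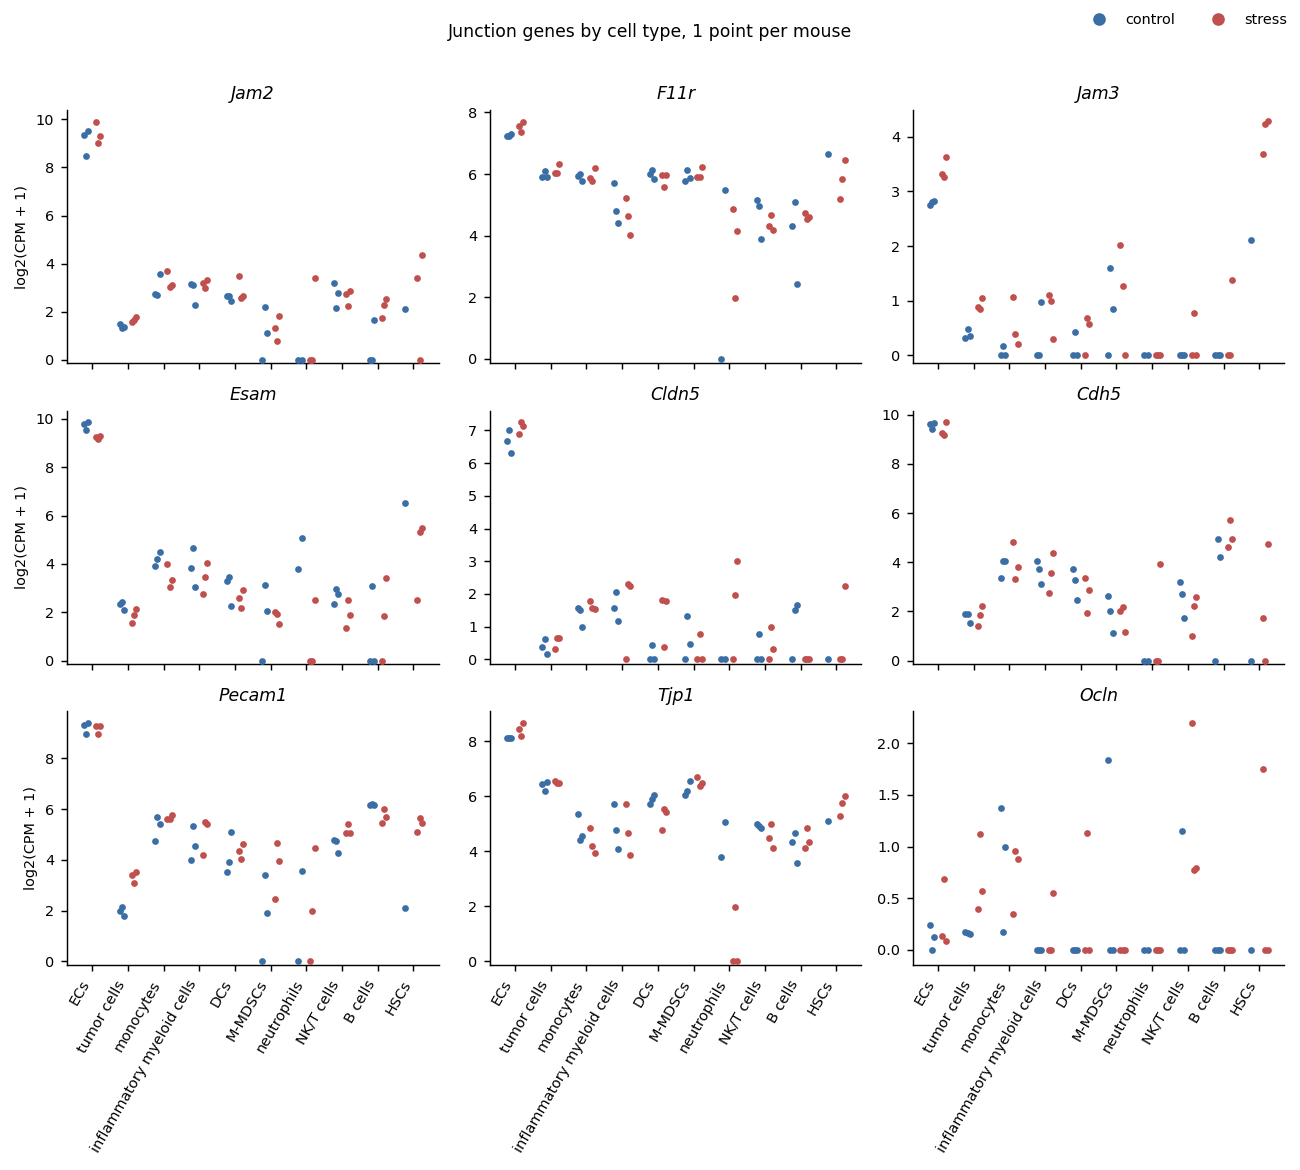
Levels of the 9 junction genes by cell type, as log2(CPM + 1) on the vertical axis, with 1 point per mouse (blue control, red stress) for sums of at least 10 cells in HSCs and neutrophils and all 6 mice in the other types. Jam2, Esam, Cldn5, Cdh5 and Pecam1 stand apart in ECs, F11r and Tjp1 are present in nearly every cell type, and Ocln is near 0 throughout.

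Single cells showed the same division. Jam2 had a UMI in 85.0% of ECs, and in 49.9% once each cell was thinned to 1000 UMIs. Droplets also take up free RNA, so the share in cells not expected to express a gene was used as background. In monocytes 2.57% of cells had a Jam2 UMI, against 2.69% of NK/T cells (0.502% and 0.446% at 1000 UMIs), and the monocyte share is therefore not read as expression by monocytes. Of the 161 monocytes with a Jam2 UMI, 58.4% had at least 2 endothelial markers, against 11.4% of all monocytes. F11r was different, with a UMI in 27.7% of monocytes and 8.80% of NK/T cells, and 6.29% and 1.01% at 1000 UMIs. Tumor cells held 75.8% of the F11r UMIs, and the free F11r RNA taken up by monocytes was not measured. Free RNA can reach NK/T cells as well, and whether they express F11r was not tested, so their share is not read as its background. In control mice the F11r to Cdh5 UMI ratio was 4.19 in monocytes, 0.20 in ECs, 5.31 in NK/T cells and 25.1 in tumor cells. In control B cells it was 1, with 24 Cdh5 UMIs, and the NK/T ratio rests on 29. The ratio therefore does not set monocytes apart from NK/T cells. At 1000 UMIs an EC carried a UMI of 2.80 of the 9 genes on average, 9.23% of ECs had both Jam2 and F11r, and no other cell type averaged more than 0.227 of the genes.

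Within ECs, levels were compared over 6 clusters of at least 10 cells in every mouse. Cluster 27 (73 cells, 3 mice with at least 10) is shown in the plot of levels by cluster but was not tested. Jam2 was highest in cluster 18, at 1354 CPM ± 332 (n = 6), with 1293, 859 and 1382 in the control mice and 1903, 1333 and 1356 in the stressed mice. It stood at 892 ± 319 in cluster 2, 768 ± 252 in cluster 8, 519 in cluster 24, 477 ± 221 in cluster 15 and 149 ± 54.4 in cluster 16. Control mouse 2 was the lowest and stressed mouse 1 the highest in all 6 clusters, so this difference between mice ran through each of them. The endothelial identity markers had the same lowest and highest mouse in all ECs (5681 and 8694 CPM). The same held in clusters 2, 8, 16 and 18, but not in clusters 15 and 24. The part of this in the Jam2 values was not tested.

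Cldn5 had another order. It was highest in cluster 2 at 216 CPM ± 38.8, and cluster 18, where Jam2 was highest, had 37.9 ± 14.3. Esam was highest in cluster 2 (1174 ± 306) and F11r was nearly level across clusters 8, 2 and 18 (217, 215 and 198), whose mice overlapped. Cluster 16 was the lowest of the 6 clusters for 8 of the 9 genes, all but the rare Ocln, with F11r at 89.0 and Cldn5 at 26.7 CPM.

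Cluster 16 also stood apart by its markers. Its endothelial identity markers summed to 1309 to 2442 CPM against 8913 to 13274 in cluster 2, and its tumor cell markers to 456 to 714 CPM against 17.2 to 46.6. Their part in the low levels was not tested. Its median depth was 15686, 21775 and 6931.5 UMIs per cell in control and 2275.5, 9758.5 and 24171 in stressed mice. In cluster 2 the medians were 3300 to 5853. Deep cells count for more in the summed ECs, and the share of those sums that cluster 16 supplied is not given here. Cluster 24 carried 908 to 2622 CPM of monocyte markers, against 248 to 397 in cluster 2, and cluster 15 was shallow, with a median of 858 to 1457 UMIs per cell. All the cluster levels are descriptions, since the clusters were drawn from the same cells.

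The 3 monocyte clusters differed little in F11r. It stood at 75.7 CPM in cluster 12, 63.1 in cluster 11 and 51.0 in cluster 13, and the mice overlapped between neighbours. Pecam1 followed the same order, with 59.2, 46.1 and 36.9 CPM.

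**Figure D2:**
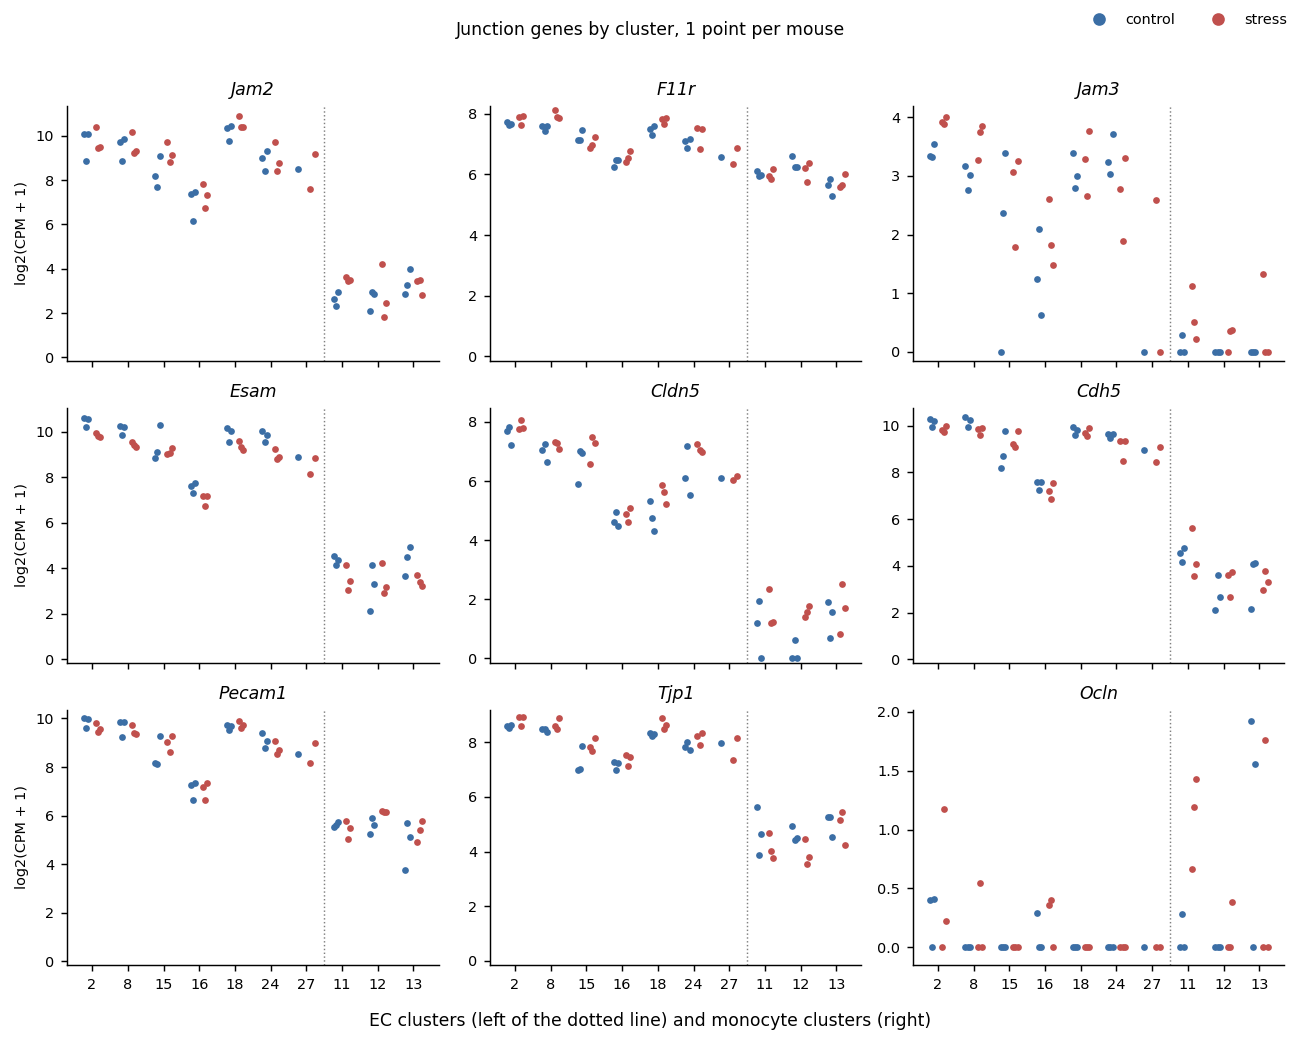
Levels of the 9 genes in each EC cluster (left of the dotted line) and monocyte cluster (right), as log2(CPM + 1), with 1 point per mouse (blue control, red stress). Jam2 is highest in cluster 18, where Cldn5 is low, Jam2, Esam, Cldn5, Cdh5 and Pecam1 are low in cluster 16, and F11r runs on into the monocyte clusters at a lower level.

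The study asked how stress alters ECs and their contact with macrophages, so the 9 genes were first compared in ECs. None of the 8 tested genes passed the threshold in edgeR's quasi-likelihood test over 14090 genes, of which 30 genes (0.213%) passed. At an unadjusted p under 0.05, 2 of the 8 passed (Jam3 and Esam), as did 15.6% of all genes, and for 4 of the 8 the mice of the groups did not overlap, against 22.8% of all genes. Ocln, with 12 UMIs, was not tested.

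Jam2, the endothelial partner in the JAM2 to F11R pair, was at 659, 357 and 730 CPM in the ECs of control mice 1, 2 and 3 and at 959, 516 and 635 in those of stressed mice 1, 2 and 3. The groups overlapped, since control mouse 3 was above stressed mice 2 and 3. The log2 fold change was 0.25 (SE 0.33, adjusted p = 0.744), and it was -0.0051 without control mouse 2 and -0.056 without stressed mouse 1. Giving each cluster the same weight left a difference of 0.30 on the log2(CPM + 1) scale (exact permutation test over mice, two-sided, p = 0.6, where 0.1 is the smallest p that 3 against 3 mice allow). That difference was -0.015 without control mouse 2. The share of ECs with a Jam2 UMI at 1000 UMIs was 55.9%, 34.7% and 58.5% in control and 65.5%, 45.1% and 46.3% in stressed mice, a difference of 2.57 percentage points (exact permutation p = 0.9), which turned to -4.92 without control mouse 2 and -4.02 without stressed mouse 1.

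Esam, an immunoglobulin-family protein of endothelial tight junctions, had lower values in stress. It was at 891, 742 and 922 CPM in control and 602, 575 and 630 in stressed mice, so every stressed mouse was below every control mouse. The log2 fold change of -0.53 (SE 0.13) did not pass the threshold in edgeR's test (adjusted p = 0.159). DESeq2, where 368 genes passed in all, gave an adjusted p of 0.0175. Over the alternative settings the edgeR and DESeq2 adjusted p ranged from 0.0175 to 0.446 and the log2 fold change from -0.71 to -0.45.

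The remaining JAMs lay higher in stress without passing the test. Jam3 was at 5.73, 5.95 and 6.04 CPM in control and 8.99, 8.59 and 11.4 in stressed mice, from 63 to 183 UMIs per mouse. Its log2 fold change was 0.69 (SE 0.18, adjusted p = 0.165). F11r was at 148, 150 and 157 CPM in control and 186, 165 and 208 in stressed mice, a log2 fold change of 0.27 (SE 0.12, adjusted p = 0.324). In both genes the groups did not overlap, and the stressed mice spread more widely than the controls. With each EC thinned to 1000 UMIs the F11r log2 fold change was 0.088 (adjusted p = 0.832). At that depth the share of ECs with an F11r UMI was 16.6, 16.8 and 17.0% in control and 18.1, 16.6 and 18.7% in stressed mice, with overlap. Thinned to 2000 UMIs, the share was 30.0, 30.5 and 31.1% in control and 37.7, 31.8 and 35.0% in stressed mice. There the groups did not overlap (exact permutation p = 0.1), so the reading depends on the depth chosen.

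Among the junction's structural genes, Tjp1 was at 277, 277 and 280 CPM in control and 350, 290 and 402 in stressed mice (log2 fold change 0.30, SE 0.14, adjusted p = 0.357), again without overlap. Cldn5, which seals the endothelial tight junction, was at 101, 128 and 79.0 in control and 117, 150 and 140 in stressed mice (0.38, SE 0.17, adjusted p = 0.352), with overlap. Cdh5 was at 793, 685 and 807 against 617, 581 and 821 (-0.20, SE 0.16, adjusted p = 0.580), and Pecam1 at 632, 501 and 664 against 622, 494 and 614 (-0.08, SE 0.16, adjusted p = 0.836). Mouse 2 of each group was the lowest of its group in Pecam1, Esam, Cdh5 and Jam2.

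**Figure D3:**
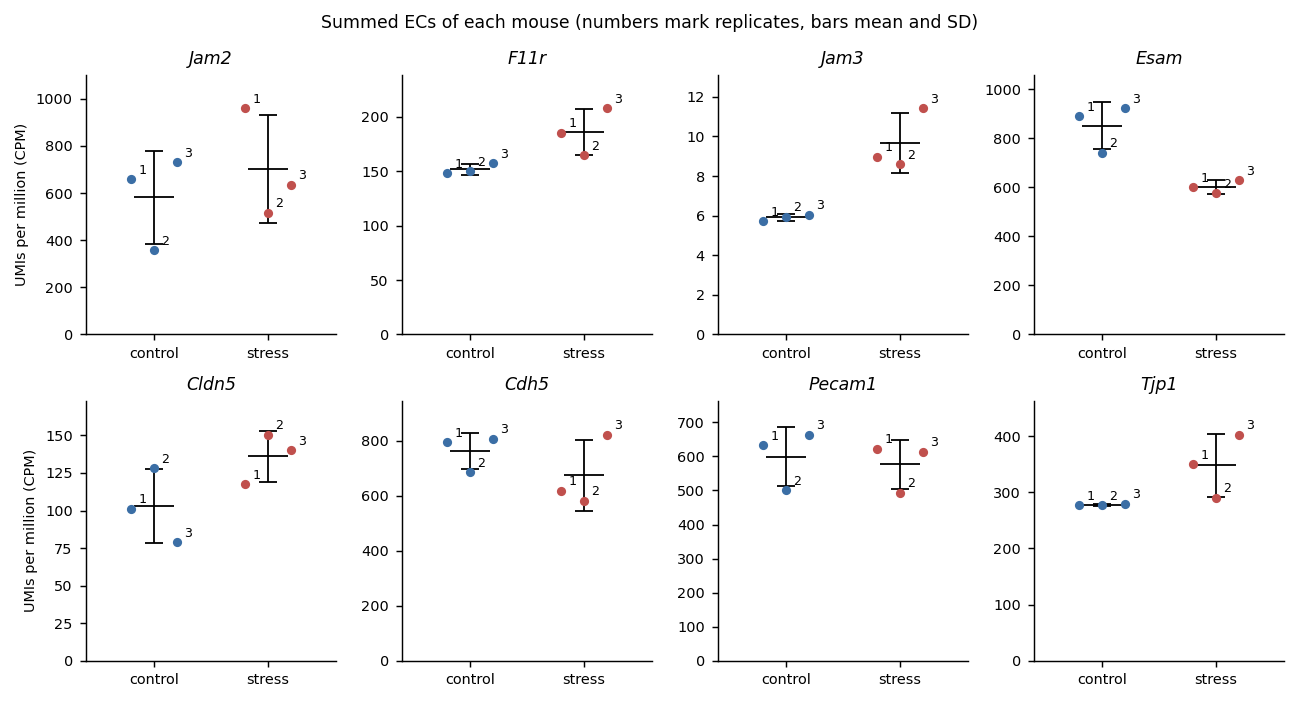
Levels of 8 genes in the summed ECs of each mouse, in CPM on axes that start at 0, with the replicate number beside each point and bars for the mean and SD (n = 3 per group). Control and stressed mice overlap in Jam2, Cldn5, Cdh5 and Pecam1 and do not overlap in F11r, Jam3, Esam and Tjp1.

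Ratios within ECs take out shifts that all endothelial genes share. The ratio of Jam2 to Cdh5 UMIs was 0.831, 0.522 and 0.905 in control and 1.55, 0.889 and 0.774 in stressed mice, a log2 difference of 0.48 (exact permutation p = 0.5). The ratio of Esam to Cdh5 was 1.12, 1.08 and 1.14 in control and 0.975, 0.991 and 0.768 in stressed mice, a log2 difference of -0.30, and Esam to Pecam1 differed by -0.44. F11r to Cdh5 differed by 0.48. For these 3 ratios the exact permutation p was 0.1, the smallest possible with 3 against 3 mice, and the groups did not overlap. Esam and F11r had already separated the groups in CPM, as had 22.8% of all genes. The share of all genes whose ratios to Cdh5 or Pecam1 separate the groups was not counted. F11r to Pecam1 differed by 0.34 with overlap (exact permutation p = 0.2), and by 0.36 without cluster 15, where the groups did not overlap (exact permutation p = 0.1).

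Of the 8 genes tested in EC clusters, 4 had the same direction in all 6 clusters and Jam3 in both clusters where it could be tested (0.55 and 0.75, without overlap in either), but no junction gene passed the threshold in any cluster. All-gene shares passing were 0.196% in cluster 2, 0.278% in cluster 8, 0.153% in cluster 15, 0.636% in cluster 16, 1.02% in cluster 18 and 0.136% in cluster 24. Esam was lower in stress in 6 of 6 clusters, with log2 fold changes of -0.81 to -0.37 and adjusted p from 0.177 to 0.647. Markers of capillary or activated endothelium were also lower in stress without overlap in cluster 2 (3504 to 4556 against 2658 to 3079 CPM), cluster 18 (5174 to 6663 against 4101 to 4862) and cluster 24 (2863 to 3901 against 1851 to 2265). Further lists separated the groups in single clusters. Monocyte markers were higher in stress in cluster 16 (47.0 to 72.3 against 80.0 to 105) and cluster 18 (339 to 468 against 474 to 716), stellate markers in cluster 16 (0.829 to 1.52 against 4.14 to 11.5) and red-cell markers in cluster 8 (2.58 to 235 against 250 to 482). Tumor cell markers were lower in cluster 18 (92.8 to 142 against 27.9 to 75.2) and platelet markers in cluster 24 (209 to 363 against 96.8 to 183). The part of these lists in the values of the junction genes was not tested. The Esam groups did not overlap in clusters 2, 8, 16 and 24, where 20.6%, 16.2%, 20.5% and 12.6% of all genes did not (19.7% in cluster 15 and 23.7% in cluster 18). In cluster 2 it was at 1580, 1192 and 1505 CPM in control and 972, 912 and 885 in stressed mice, and in cluster 8 at 1215, 924 and 1169 against 749, 685 and 639. Jam2 was higher in 6 of 6 (0.02 to 0.89) but overlapped in all, and Cldn5 (0.15 to 0.74) and Tjp1 (0.18 to 0.61) were also higher in 6 of 6. The clusters come from the same 6 mice and are not independent.

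Jam2 had its highest fold change in the shallow cluster 15. There it was at 289, 207 and 534 CPM in control and 830, 445 and 556 in stressed mice (log2 fold change 0.89, SE 0.36, adjusted p = 0.286). Red-cell markers there were at 0 to 4.77 CPM in control and 0 to 3231 CPM in stressed mice, and endothelial identity markers at 2819, 3209 and 7609 CPM against 6943, 6300 and 7813. Tumor cell markers were at 310 to 438 CPM in control and 98.6 to 308 in stressed mice, without overlap. The cluster held 34, 104 and 81 cells in control and 176, 450 and 414 in stressed mice, without overlap. All ECs numbered 1961, 2107 and 1514 in control and 1560, 1951 and 2340 in stressed mice. The part of these in the Jam2 values was not tested. The difference in stress effect between clusters 2 and 8 was tested for 11766 genes, of which 53 (0.45%) passed. None of the 8 junction genes tested was among them, and Ocln was not tested. The lowest unadjusted p was that of F11r, whose effect was lower in cluster 2 than in cluster 8 by -0.32 on the log2 scale (SE 0.11, adjusted p = 0.356).

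In monocytes F11r gave the other side of the pair. It was at 60.7, 63.6 and 53.4 CPM in control and 58.0, 54.2 and 71.8 in stressed mice, so the groups overlapped (log2 fold change 0.11, SE 0.17, adjusted p = 0.809). Without stressed mouse 3 the fold change was -0.056. The share of monocytes with an F11r UMI at 1000 UMIs was 5.80%, 6.81% and 6.66% against 6.09%, 5.39% and 6.75%, a difference of -0.343 percentage points (exact permutation p = 0.6).

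None of the 7 junction genes tested in monocytes passed, where 15 of 12251 genes (0.122%) passed and 186 did with the replicate number as a block. At an unadjusted p under 0.05, 1 of the 7, Esam, passed, against 12% of all genes, and the block changed no call of these 7 genes. No tested gene of the set separated the groups, against 18% of all genes without overlap. Esam was at 14, 17.6 and 21.8 CPM in control and 15.1, 7.35 and 9.05 in stressed mice (-0.77, SE 0.31, adjusted p = 0.380) and its UMI ratio to Cdh5 was 1.26 in control and 0.693 in stressed monocytes, against 1.12 and 0.875 in ECs. Pecam1 was at 25.6, 51.2 and 41.8 against 48.1, 47.2 and 53.3 (0.36, SE 0.24, adjusted p = 0.572). Jam3 had 10 and Ocln 30 UMIs in all monocytes.

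By monocyte cluster no junction gene passed, against 0.102%, 0.218% and 0.0984% of all genes in clusters 11, 12 and 13. Jam2 in cluster 11 was at 5.23, 3.93 and 6.85 CPM in control and 11.2, 9.83 and 10.3 in stressed mice, from 4 to 61 UMIs per mouse (log2 fold change 1.17, SE 0.33, adjusted p = 0.226), where the share of all monocytes with a Jam2 UMI was near that of NK/T cells. Esam in cluster 11 was at 22.2, 16.6 and 19.4 against 16.5, 7.27 and 9.97 (-0.73, SE 0.32, adjusted p = 0.437). In this cluster stellate markers were at 1.14 to 2.40 CPM in control and 8.28 to 31.9 in stressed mice, hepatocyte markers at 0 to 6.85 and 10.5 to 37.2, and lymphocyte markers at 6.53 to 69.6 and 82.6 to 113. The markers of monocytes and macrophages themselves were at 7283 to 7550 CPM in control and 5578 to 5931 in stressed mice. The part of these 4 lists in these values was not tested. Pecam1 in cluster 12 was at 36.4, 59.3 and 48.0 against 72.9, 69.0 and 69.5 (0.57, SE 0.19, adjusted p = 0.263). In all 3 the groups did not overlap, as in 19.4%, 18.3% and 12.1% of all genes in the 3 clusters.

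Tested directly, the stress effect differed between ECs and monocytes for 0 of 15661 genes in edgeR's test (0%). At an unadjusted p under 0.05 the number was 1276 (8.15%). Among the junction genes Tjp1 had the lowest p, with an effect higher in ECs by 0.76 on the log2 scale (SE 0.33, adjusted p = 0.605 in edgeR). The difference for Jam2 was 0.03 (adjusted p = 0.995). The share of monocytes with a Jam2 UMI was near that of NK/T cells and is not read as expression. This value therefore does not compare the Jam2 expression of ECs and monocytes.

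JAMs also bind integrins, and the integrin subunits of monocytes were examined. Itgav, the alpha-v subunit, was at 110, 112 and 106 CPM in control and 266, 185 and 227 in stressed mice. The groups did not overlap, and the log2 fold change of 1.10 (SE 0.17) had an adjusted p of 0.0758 in edgeR, short of the threshold. Itgb3, which pairs with alpha-v, lay in the other direction (-0.85, adjusted p = 0.380). Itga4, Itgal, Itgam, Itgax, Itgb1 and Itgb2, which include the known JAM-binding leukocyte subunits, had log2 fold changes from -0.18 to 0.70 and adjusted p from 0.661 to 0.867. Hepatocyte markers moved with stress in these monocytes, from 0 to 1.73 CPM in control and 9.45 to 20.7 in stressed mice, and Alb, albumin, rose (4.32, SE 0.54, adjusted p = 0.0340). Lymphocyte markers were at 2.40 to 35.4 CPM in control and 40.4 to 73.4 in stressed monocytes, and platelet markers at 119 to 450 and 42.4 to 319. Stellate markers were at 0.495 to 2.09 CPM in control and 5.85 to 14.8 in stressed monocytes. Their part in the monocyte values was not tested.

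**Figure D4:**
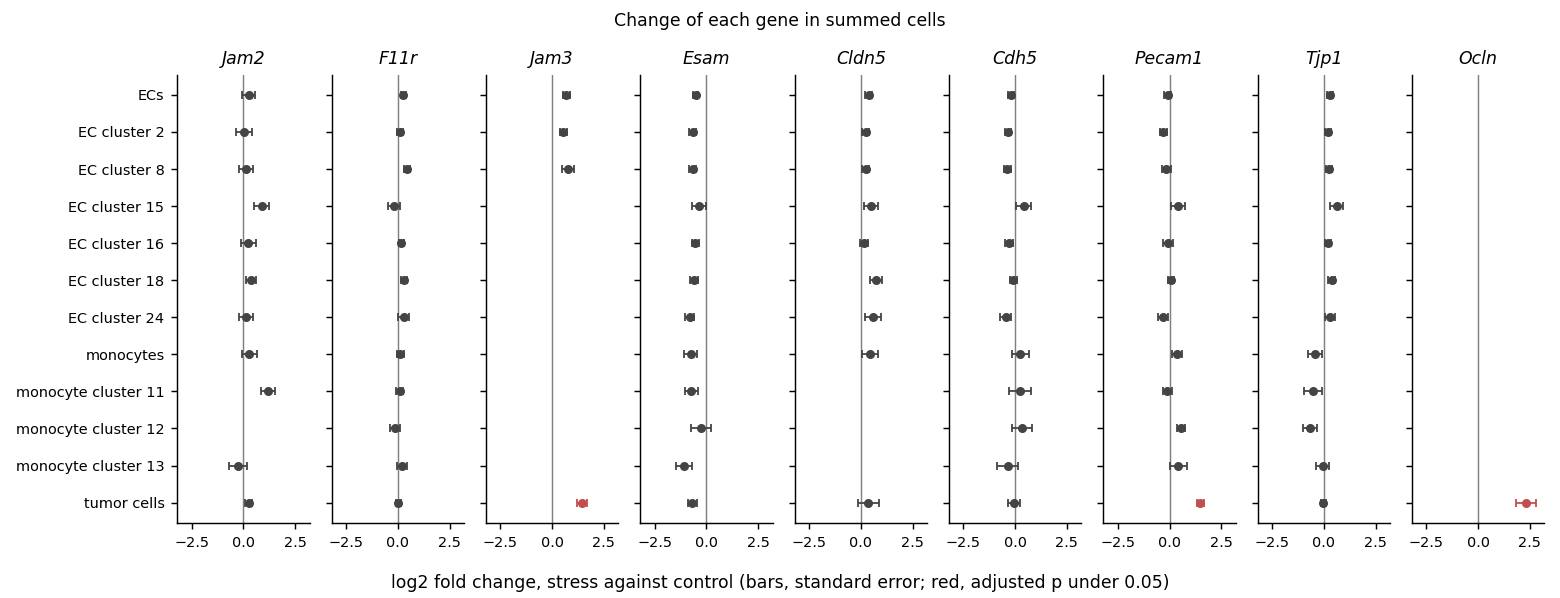
Log2 fold change of each gene, stress against control, in summed ECs, monocytes, tumor cells and their EC and monocyte clusters, with bars for the standard error and red for an adjusted p under 0.05 in edgeR. Points are absent where a gene did not pass the filter on low counts, and red appears for Jam3, Pecam1 and Ocln in tumor cells.

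In tumor cells, where junction gene levels were low except for F11r and Tjp1, 3 of 9 genes passed the test, against 4041 of 18856 genes (21.4%). Pecam1, Jam3 and Ocln rose, as did 12% of all genes. Pecam1 was at 3.0, 3.48 and 2.46 CPM in control and 9.69, 7.60 and 10.4 in stressed mice (log2 fold change 1.5, SE 0.18, adjusted p = 0.00442), so every stressed mouse exceeded every control mouse. It passed under each alternative tried, with adjusted p up to 0.0257 and log2 fold changes from 1.13 without cluster 9 to 2.36 with cells thinned to 1000 UMIs. These alternatives were added after the data were seen, and 484 to 5790 of all genes passed under them.

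Jam3 was at 0.252, 0.389 and 0.271 CPM in control and 0.838, 0.809 and 1.08 in stressed mice (1.44, SE 0.25, adjusted p = 0.0101). It no longer passed without control mouse 3 (1.37, adjusted p = 0.0504) or in tumor cells with fewer than 2 endothelial markers (1.13, adjusted p = 0.153). Ocln was at 0.123, 0.119 and 0.111 against 0.311, 1.18 and 0.482 (2.31, SE 0.48, adjusted p = 0.0173). Its 291 UMIs lay in 123 of 29638 tumor cells, and in cluster 14 the mice ranged from 0.125 to 12.5 CPM. It did not pass without control mouse 1 (2.34, adjusted p = 0.0525) or control mouse 3 (2.27, adjusted p = 0.0670). Without stressed mouse 2 it was 1.62 (adjusted p = 0.0316).

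Esam was at 4.12, 4.35 and 3.31 CPM in control and 1.98, 2.73 and 3.45 in stressed tumor cells (-0.68, SE 0.20, adjusted p = 0.0508), with overlap through stressed mouse 3. It passed under 6 of 12 alternatives, over which 484 to 5790 of all genes passed. DESeq2 was among the 6 (adjusted p = 0.00512). Esam also passed in cells with fewer than 2 endothelial markers (-0.85, adjusted p = 0.0264) and without stressed mouse 3 (-0.87, adjusted p = 0.0389). The other 5 genes did not pass, with log2 fold changes of 0.26 for Jam2, 0.35 for Cldn5, 0.03 for F11r, -0.02 for Tjp1 and -0.05 for Cdh5. Jam2 values did not overlap (1.80, 1.53 and 1.59 against 1.97, 2.12 and 2.43 CPM), as was so for 4 of the 9 genes and 38.3% of all genes. Mean levels in tumor cells were below those in NK/T cells for Jam2 (1.91 against 5.50 CPM) and Esam (3.32 against 4.26). At least 2 endothelial markers were in 62.9% of tumor cells with Jam2, 57.9% with Esam and 46.0% of all. Neither gene's values are therefore read as expression by tumor cells, and the part of free RNA was not tested.

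Markers of other cells were also measured in the tumor cells. Endothelial identity markers summed to 71.2 to 76.2 CPM in control and 71.8 to 80.5 in stressed mice, platelet markers to 5.48 to 6.24 and 6.26 to 6.76, and monocyte markers to 5.59 to 18.7 and 6.83 to 22. Tumor cell markers summed to 695 to 741 CPM in control and 783 to 974 in stressed mice, and like the platelet markers did not overlap, and the part of both was not tested. The pooled ratio of Pecam1 to Cdh5 UMIs was 1.21 in control and 3.63 in stressed tumor cells, against 0.783 and 0.838 in ECs. Among 2700 tumor cells with a Pecam1 UMI, 57.4% had at least 2 endothelial markers, compared with 46.0% of all tumor cells. In tumor cells with fewer than 2 of these markers the fold change of Pecam1 was 1.41 (adjusted p = 0.00887).

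The difference in Pecam1 was present in every tumor cell cluster tested, a comparison added after the values were seen. It was higher in 9 of 9 clusters, without overlap in 9, and passed the test in 5 (clusters 1, 4, 9, 14 and 17). The tumor cell clusters share the same 6 mice, so they are not independent. In these 9 clusters, 1, 3, 4, 5, 6, 7, 9, 14 and 17, the share of all genes passing was 14.6%, 3.11%, 14%, 2.05%, 1.17%, 3.48%, 9.17%, 6.71% and 2.01%, and the share without overlap 34.7%, 26.4%, 34.9%, 26.3%, 25.4%, 26.9%, 27.7%, 27% and 18%. Cluster 9 had 5.20, 5.53 and 4.07 CPM in control and 65.8, 34.7 and 37.2 in stressed mice (log2 fold change 3.23, SE 0.30, adjusted p = 0.00129). Without cluster 9, the value over the remaining tumor cells was 1.13 (adjusted p = 0.0121). In cluster 9 lymphocyte markers were at 0.979 to 2.93 CPM in control and 2.18 to 6.57 in stressed mice, monocyte markers at 5.87 to 17.7 and 10.2 to 34.7, and endothelial markers at 90.5 to 97.0 and 91.6 to 119, and their part was not tested. Cluster 17, at 29.0, 33.0 and 11 CPM of Pecam1 against 64.8, 53.8 and 90.3, also held more endothelial markers (169 to 322 and 227 to 446 CPM) than cluster 9. Lymphocyte markers in cluster 17 were at 3.62 to 13.8 CPM in control and 20.2 to 62.2 in stressed mice, and hepatocyte markers at 0 to 2.20 and 6.32 to 93.1, and their part in the Pecam1 values was not tested. Platelet markers in cluster 1 were at 3.76 to 4.83 and 4.85 to 6.97 CPM, and stellate markers in cluster 14 at 0.541 to 0.938 and 0.974 to 2.36. Tumor cell markers were higher in stress without overlap in clusters 1 (629 to 640 and 666 to 773), 4 (562 to 681 and 720 to 882) and 14 (483 to 492 and 528 to 581). The part of these lists was not tested either. Esam lay lower in 9 of 9 clusters (-1.03 to -0.26), without overlap in 4, and passed in none.

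**Figure D5:**
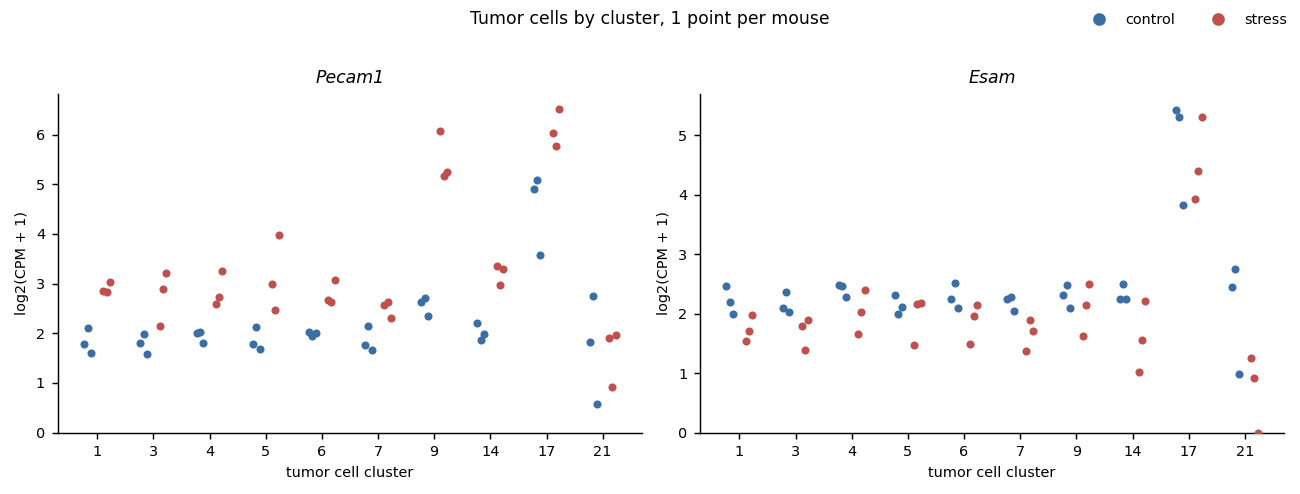
Pecam1 (left) and Esam (right) in the tumor cell clusters, as log2(CPM + 1), with 1 point per mouse (blue control, red stress). The 3 stressed mice lie above the 3 control mice for Pecam1 in every cluster except cluster 21, which did not reach the test for this gene, and cluster 9 shows the widest gap.

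In the other cell types tested no junction gene passed, against 2.64% of genes in DCs, 0.857% in NK/T cells, 0.483% in B cells, 0.561% in M-MDSCs and 0% in inflammatory myeloid cells (0 of 9219 genes in edgeR, 365 or 3.96% at an unadjusted p under 0.05). Pecam1 in NK/T cells was at 26.6, 26 and 18.5 CPM in control and 32.3, 41.4 and 32.5 in stressed mice (0.65, SE 0.21, adjusted p = 0.219). In B cells it was at 71.2, 72.3 and 70.3 against 42.2, 62.7 and 50.6 (-0.35, adjusted p = 0.646). Tjp1 in DCs was at 51.3, 58.0 and 65.8 against 26, 45.5 and 41.6 (-0.48, SE 0.21, adjusted p = 0.262). These values did not overlap between groups, as was the case for 20.1% of all genes in NK/T cells, 14% in B cells and 25.4% in DCs.

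The other listed junction genes were tested in ECs in the same fit. Of 27 listed tight junction genes 17 were tested and 0 passed in edgeR, with 7 fold changes above and 10 below 0 and a median of -0.12, against -0.01 for all genes. Of 27 adherens junction and contact genes 25 were tested and 0 passed (15 above, 10 below, median 0.02), and of 14 JAM relatives and integrins 11 were tested and 0 passed (5 above, 6 below, median -0.02). At an unadjusted p under 0.05 these counts were 1, 3 and 1, against 15.6% of all genes. The largest fold changes in each list were those of Cldn15 (-0.92, adjusted p = 0.647) and Tjp3 (-0.72, adjusted p = 0.546), Cdh13 (0.58, adjusted p = 0.376) and Ptprb (0.54, adjusted p = 0.245), and Clmp (-1.43, adjusted p = 0.215) and Itgb3 (-0.78, adjusted p = 0.435). Groups did not overlap for Ptprb, the vascular phosphatase VE-PTP that binds Cdh5, or for Clmp (6.37, 2.09 and 5.95 CPM in control against 2.01, 1.58 and 1.81), and in the 3 lists they did not for 1, 4 and 1 genes, against 22.8% of all genes. In monocytes 0 genes of the 3 lists passed in edgeR (1, 3 and 2 at an unadjusted p under 0.05, against 12% of all genes), with medians of -0.24, 0.08 and 0.16.

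The genes whose levels most resembled those of Jam2 over 57 sums of 10 cell types and 6 mice were Oit3 (Pearson r of log2(CPM + 1) 0.957), Cyyr1 (0.955), Ptprb (0.948), Sox7 (0.941) and Eng (0.933), out of 11891 genes. F11r was most like Cttnbp2nl (0.904), Ctnnd1 (0.902), Tmbim1 (0.902), Frmd4a (0.899) and Nus1 (0.886), and Jam3 most like Gpc4 (0.909), Hmcn1 (0.905), Tmem98 (0.902), C1qtnf7 (0.901) and Mcc (0.901). Among the 9 genes Jam2 was closest to Cdh5 (0.892) and Cldn5 (0.892), F11r to Tjp1 (0.698), and Ocln was at most 0.0357 with any of them. The sums share 6 libraries and their depth, so these values are descriptions of a pattern across cell types.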

How the data were processed

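Droplet single-cell RNA-seq of liver tumors of 6 mice was analysed from matrices of UMI counts, which the authors deposited unnormalized from Cell Ranger (build mm10 per the labels). Mouse, cluster and cell type came from the authors' deposited cell table, whose UMI totals differed from the matrices by at most 1.19%. The authors' cell filter, which per their methods removed doublets, was kept, and no doublets were called here. UMIs were summed per mouse and tested in edgeR 4.0.16 (R 4.3.3, filterByExpr, TMM, quasi-likelihood test, Benjamini-Hochberg, threshold 0.05) over all genes of a cell type, where each mouse had at least 10 cells, which left out neutrophils and HSCs. DESeq2 1.42.0, RLE normalization, no filter, leaving out each mouse, a replicate block and other choices of cells were alternatives. Single values were compared by two-sided exact permutation over mice. Depth was thinned with fixed seeds in Python 3.11.15, and the edgeR fit was checked on simulated counts. A gene that missed the threshold is not thereby shown to be equal between groups. The genes and lists were chosen with earlier results of these data known. All 9 genes are named, with the 2 largest fold changes of each list in ECs, monocyte integrin subunits and the 5 genes most like Jam2, F11r and Jam3 among genes of at least 10 CPM in some cell type.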

Additional observations from a re-analysis of the deposited data

Results flagged for a closer look

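Pecam1 and Tjp1 had cell types in which every stressed mouse lay on one side of every control mouse and another in which the order was the opposite, and the difference between these cell types was not tested. Pecam1 was higher in stress by 11.7 CPM in NK/T cells (23.7 in control, 35.4 in stress) and by 6.25 CPM in tumor cells (2.98 and 9.23), and the difference in B cells was -19.4 CPM (71.3 and 51.8, from 215 UMIs). Tjp1 was higher by 69.7 CPM in ECs (278 and 348), and the difference in DCs was -20.7 CPM (58.4 and 37.7). Groups did not overlap for 20.1% of all genes in NK/T cells, 38.3% in tumor cells, 14% in B cells, 22.8% in ECs and 25.4% in DCs. How many of all genes had opposite orders in this way was not counted, so the pattern is not read as particular to these genes.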

How the results depend on the processing

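Of 311 refits of the junction genes, 278 kept direction and side of the threshold, 4 lost and 7 gained a pass, and 22 turned direction, all 22 among genes that did not pass. Counts of genes passing depended on the setting. In ECs, 30 became 107 without the low-count filter, 368 in DESeq2, and 3 to 46 leaving out a mouse. In monocytes, 15 became 214 without the filter, 168 in DESeq2, 3 to 64 leaving out a mouse, 8 with equal cells and 9 with cells thinned to 1000 UMIs. In tumor cells, 4041 became 1191 to 5790 leaving out a mouse, 2143 in cells with fewer than 2 endothelial markers and 484 thinned. With the replicate block, 132 genes passed in ECs and 186 in monocytes. Samples of the same number correlated at 0.571, 0.434 and 0.016 in ECs, 0.476, 0.422 and 0.146 in monocytes and 0.496, 0.390 and -0.13 in tumor cells. Samples of different numbers correlated at up to 0.233 in ECs, 0.187 in monocytes and 0.330 in tumor cells. In each of these cell types that is above the lowest same-number value. The labels do not say what a number marks, so no pairing is read from these correlations. The block changed no call of a junction gene in ECs or monocytes. In tumor cells it took Esam past the threshold (-0.71, adjusted p = 0.0424).

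Leaving out a mouse gave -0.056 to 0.46 for Jam2 and -0.19 to 0.036 for Pecam1 in ECs, -0.056 to 0.22 for F11r and -0.24 to 0.57 for Cdh5 in monocytes, and, in tumor cells, -0.049 to 0.11 for F11r, -0.025 to 0.88 for Cldn5, -0.35 to 0.16 for Cdh5 and -0.14 to 0.048 for Tjp1. Jam2 at equal cluster weights ran from -0.015 to 0.53, the share of ECs with Jam2 from -4.92 to 6.98 points, the share of monocytes with F11r from -0.680 to 0.00106 points and the share of Jam2 UMIs in ECs from -0.409 to 1.17 points. F11r in monocytes was -0.076 thinned and -0.018 without cluster 13, and its share differed by 3.36 points unthinned and 0.730 at 2000 UMIs. In tumor cells, thinning gave 0.37 for Cdh5 and 0.11 for Tjp1, and Tjp1 was 0.036 with fewer than 2 markers and 0.0095 without cluster 9. The cause of these turns was not tested. In ECs, leaving out a mouse gave ranges without a turn of -0.375 to -0.092 for Cdh5, 0.23 to 0.57 for Cldn5, 0.18 to 0.43 for Tjp1 and 0.18 to 0.37 for F11r. The log2 ratio difference ran from 0.18 to 0.68 for Jam2 to Cdh5 and from -0.37 to -0.18 for Esam to Cdh5. It ran from -0.52 to -0.38 for Esam to Pecam1, 0.43 to 0.55 for F11r to Cdh5 and 0.28 to 0.46 for F11r to Pecam1. Leaving out 1 mouse moves Jam2 through 0, and 3 mice per group, few UMIs of Jam3 and Ocln, and counting versions that differ by group limit what can be read.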
